A study of Mus musculus with 9 samples.

Results

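The liver of mice that had been fasted for 16 h and then refed for 20 h was compared with the liver of mice fed ad libitum, and the genes that still stood 4-fold or more away from ad libitum after refeeding are described. Each condition is 1 library made from pooled livers. Of 20418 genes in the files, 11197 had 100 or more counts in either library, and 330 of them lay 4-fold or more apart between the 2 libraries, 161 higher and 169 lower in the refed library. The highest-total transcript was kept for each gene, and levels are CPM (counts per 1000000) of a library size scaled by TMM (trimmed mean of M values) over all 9 libraries of the series.

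All mice were male C57BL/6J housed under a 12-h light and dark cycle. The fasted mice had no food from ZT9 to ZT1 (zeitgeber time, hours after lights on), the refed mice went through a fast of the same length before food was returned, and the remaining 6 libraries came from mice kept in constant darkness (DD) for 6 weeks after 1 week of light and dark, sampled at circadian times (CT) 1, 5, 9, 13, 17 and 21. No source used here states the age of the mice, how many livers went into each pool or at which hours the ad libitum and refed livers were taken, so the part of food and the part of the hour in a ratio cannot be told apart. Because there is 1 library per condition, no test was made. The intervals given are exact 95% intervals of the ratio that cover counting error only, and differences between mice are not in them. In bulk liver, fewer cells of a type and less RNA per cell also cannot be told apart.

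The 9 libraries held 43497102 to 59632116 counts over genes, with 59632116 in the ad libitum and 48173560 in the refed library. The ad libitum library stood apart from most others: 29.2% of its counts fell on 36 acute phase genes, against 7.02% in the fasted library, 8.17% in the refed library and 4.73% to 19.3% in DD, where CT1 (19.3%) and CT17 (19.0%) were the high ones. Of 9 hepatocyte markers measured, all passed the count minimum, with a median log2 ratio of 0.61. Endothelial markers differed little, with ratios of -0.50 to 0.32 for all 10, and of 14 lymphocyte markers in the files 0 reached 100 counts in either library. For many of the genes named below, the comparison with the ad libitum library is therefore set beside the 6 DD libraries. Where no DD value is given, the ratio stands against the ad libitum library alone.

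The fed liver takes up sugar, stores it as glycogen and turns the excess into fatty acids, while the fasted liver releases glucose and burns fatty acids, in large part through the nuclear receptor PPARalpha. The liver also makes bile acids, clears foreign compounds with cytochrome P450 and conjugating enzymes, and secretes acute phase proteins when interleukin-6 and interleukin-1 reach it during infection, injury or stress. A clock of transcription factors runs in hepatocytes, in which BMAL1 (Arntl) with CLOCK or NPAS2 drives the Per, Cry and Nr1d genes that later repress it, and feeding time is one of the cues that set its phase.

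**Figure D1:**
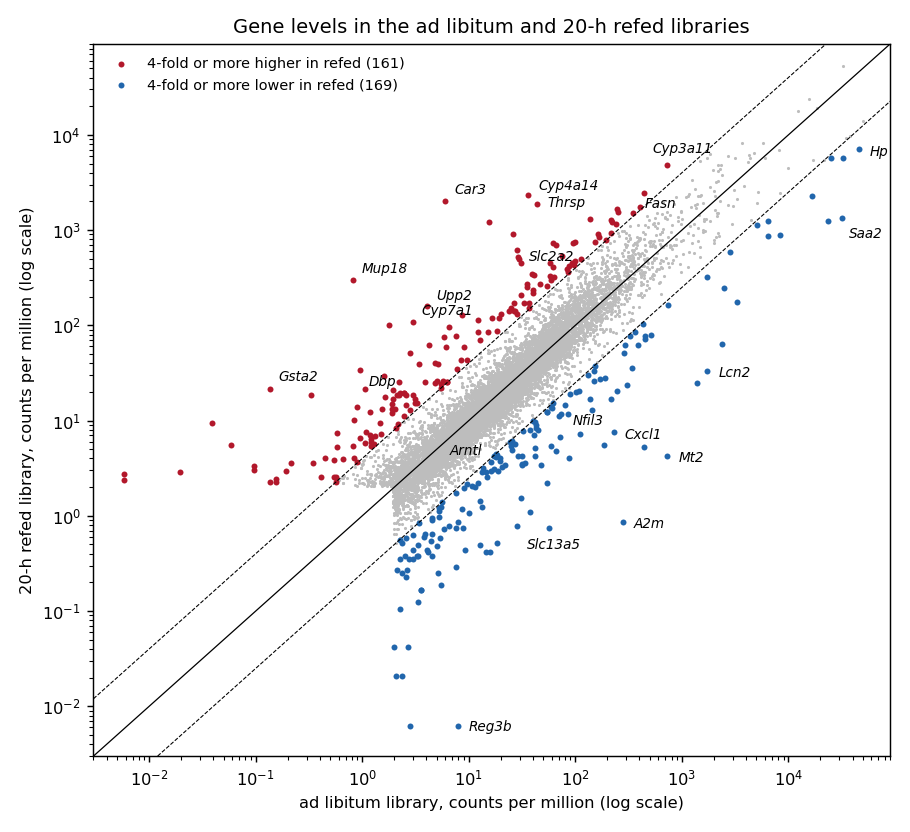
Level of each of 11197 genes in the ad libitum (x axis) and the 20-h refed library (y axis), in CPM on log axes, with the 161 higher genes in red and the 169 lower genes in blue. The solid line marks equal levels, the dashed lines mark 4-fold, and genes at 0 counts are drawn at the level of 0.3 counts.

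The genes at 4-fold or more were 1.44% (higher) and 1.51% (lower) of all genes at the count minimum, and the median log2 ratio over all of these genes was -0.02. With total counts in place of TMM the median moved to 0.18, and 61.3% of the genes past 4-fold were then higher, against 48.8% in the main scaling. Among the higher genes the median fold was 6.63, with 60 genes at 8-fold or more and 27 at 16-fold or more, and among the lower genes it was 6.77, with 73 and 35. Both libraries held 100 or more counts for 110 of the higher and 100 of the lower genes, and the others passed the minimum only through the library in which they were high, so counts over the genes of a list that passed are descriptions. The whole counting interval lay past 4-fold for 138 higher and 136 lower genes. Just inside the limit were Slco1a1 (4.02-fold higher) and Btg2 (4.02-fold lower), and just outside it were Pnpla3 (3.99-fold higher) and Pim3 (3.96-fold lower). At 2-fold or more, 5.89% of genes were higher and 5.51% lower.

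The higher genes took 0.58% of all counts in the ad libitum library and 4.85% in the refed library, beside 6.04% in the fasted library and 1.58% to 4.93% in DD. The lower genes took 19.8% of the ad libitum and 3.05% of the refed counts, beside 2.82% in the fasted library and 1.80% to 11.8% in DD. In both sets the ad libitum library was therefore at one end, and for the lower genes CT1 (11.2%) and CT17 (11.8%) lay nearest to it.

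Enzymes that conjugate and clear compounds gave the most higher genes of the lists examined. Of 43 conjugating enzymes at the count minimum, 16 were 4-fold or more higher and 0 lower, with a median log2 ratio of 1.78, and 36 were 2-fold or more higher. Glutathione S-transferases, which couple glutathione to reactive compounds, had the largest ratios. Gsta2 (chromosome 9, 78331018 to 78347192, GRCm38) was at 0.136 CPM in the ad libitum, 9.09 in the fasted and 21.7 in the refed library, and at 2.26 to 20.2 in DD with a median of 8.92. Its ad libitum level was the lowest and its refed level the highest of the 9 libraries. The log2 ratio of refed over ad libitum was 7.32 (6.27 to 8.64), from 7 and 1042 counts. Gsta1 had 2 counts ad libitum and 456 refed, a log2 ratio of 7.94 (6.08 to 10.99). Gm3776, a near copy, had 0 and 131, which is at least 46.9-fold higher with the 0 set to 3 counts in that library. Reads of these 3 closely related genes may have been split between them, so their separate values are uncertain. Gsta4 stood 3.88 and Gsta3 2.79 higher on the log2 scale.

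UDP-glucuronosyltransferases and a methyltransferase were among the higher genes as well. Ugt2b1, which attaches glucuronic acid, was at 137 CPM ad libitum, 961 fasted, 1311 refed and 399 to 1102 in DD, so that the refed level passed all 6 DD libraries and the ad libitum level lay under all of them (log2 ratio 3.26, 3.22 to 3.30). Ugt2b38 stood 4.19 higher and Inmt, an N-methyltransferase for indoleamines, 5.14 higher. Inmt went from 25.8 CPM ad libitum to 304 fasted and 912 refed, inside its DD range of 87.1 to 1458. The Ugt2b genes lie in 1 cluster of similar sequences and may share reads.

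Of 38 drug-metabolizing cytochrome P450 genes, 12 were 4-fold or more higher and 1 lower, with a median log2 ratio of 1.47. Cyp3a11, the main mouse counterpart of the human drug oxidase CYP3A4, was at 718 CPM ad libitum, 7797 fasted and 4785 refed, with a DD range of 2035 to 5713. It thus had its lowest level of all 9 libraries in the ad libitum library, and the refed level was inside the DD range. Cyp2a5 stood 4.07, Cyp2c55 4.21 and Cyp1a2 2.30 higher on the log2 scale. The retinoic acid hydroxylases Cyp26a1 (7.98-fold) and Cyp26b1 (2.80 on the log2 scale) were also among the higher genes. Cyp17a1, which makes androgen precursors, was the P450 that stood lower (-2.13, 42.0 CPM ad libitum and 9.60 refed). The Cyp2c and Cyp3a genes are families of near copies, so reads may have been shared within them.

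Targets of PPARalpha and enzymes of fatty acid oxidation made up the next group. Of 45 such genes, 12 were 4-fold or more higher and 0 lower, and 27 were 2-fold or more higher, with a median log2 ratio of 1.14 in the refed and 2.39 in the fasted library, each against ad libitum. Cyp4a14, an omega-hydroxylase of fatty acids (chromosome 4, 115486200 to 115496158, GRCm38), was at 36.0 CPM ad libitum, 10054 fasted and 2329 refed, and at 3.77 to 134 in DD with a median of 25.2. The fasted and refed libraries lay far above the other 7, and the ad libitum level was inside the DD range. The log2 ratio of refed over ad libitum was 6.02 (5.95 to 6.08). Its neighbour Cyp4a10 was at 15.4 CPM ad libitum, 4598 fasted, 1216 refed and 7.91 to 168 in DD (log2 ratio 6.31). These 2 genes are similar in sequence and may share reads.

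Other members of the list were lower in the refed than in the fasted library but stayed above ad libitum. Ehhadh, the peroxisomal bifunctional enzyme, was at 61.5 CPM ad libitum, 5842 fasted, 734 refed and 116 to 447 in DD. Acaa1b, a peroxisomal thiolase whose exons overlap Dlec1 on the other strand, was at 28.6, 2787 and 623 CPM in the same order, with 189 to 1082 in DD. For Ehhadh the refed level was above all DD libraries, whereas for Acaa1b it was within their range and only the ad libitum level lay outside it. Acot1, an acyl-CoA thioesterase, kept less of its fasted level (1.94 CPM ad libitum, 574 fasted, 16.7 refed), and Fabp1, the liver fatty acid binding protein, was at 442, 4179.7 and 2439 CPM. Aldh3a2 (3.86), Fitm1 (3.54) and Retsat (2.96) also passed 4-fold.

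Genes of fatty acid synthesis stood higher in the refed liver, in contrast to the fasted one. Of 21 genes, 5 were 4-fold or more higher and 0 lower, and 13 were 2-fold or more higher; the median log2 ratio to ad libitum was 1.32 refed and -0.46 fasted. Thrsp, a nuclear protein that promotes lipogenesis (chromosome 7, 97412933 to 97417550, GRCm38), was at 43.5 CPM ad libitum, 15.9 fasted and 1895 refed, and at 109 to 2463 in DD with a median of 472. Only the ad libitum and fasted libraries were under the DD range (log2 ratio of refed over ad libitum 5.44, 5.38 to 5.50). Elovl6, which elongates palmitate, was at 61.7, 53.1 and 414 CPM, its highest of the 9 libraries. Fasn, the fatty acid synthase, was at 351, 54.0 and 1506 CPM and within its DD range of 583 to 2607, and malic enzyme (Me1), a source of NADPH, stood 2.70 higher. Scd1, Srebf1 and Acaca, which did not reach 4-fold, had log2 ratios of 0.94, 1.06 and 1.47.

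Carbohydrate genes gave 3 members among the 17 of the glucose and fructose list, 0 of them lower. Slc2a2 encodes GLUT2, the glucose carrier of hepatocytes (chromosome 3, 28697903 to 28728361, GRCm38). It was at 29.0 CPM ad libitum, 173 fasted, 523 refed and 73.1 to 426 in DD. The refed level was the highest and the ad libitum level the lowest of the 9 libraries (log2 ratio 4.17, 4.10 to 4.25). Pklr, liver pyruvate kinase, was at 35.0, 24.9 and 254 CPM, inside its DD range of 55.5 to 355, and Hcn3, which shares exon sequence with it on the other strand, had a log2 ratio of 3.97 beside 2.86 for Pklr. The fructose carrier Slc2a5 stood 2.80 higher, and the fructose kinase Khk stood 1.82 higher. G6pc, the last step of glucose release, was at 74.6 CPM ad libitum, 1461 fasted and 529 refed. Ugp2, which makes UDP-glucose for glycogen, stood 2.28 higher. Pck1, the entry enzyme of gluconeogenesis, had a log2 ratio of -0.36.

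**Figure D2:**
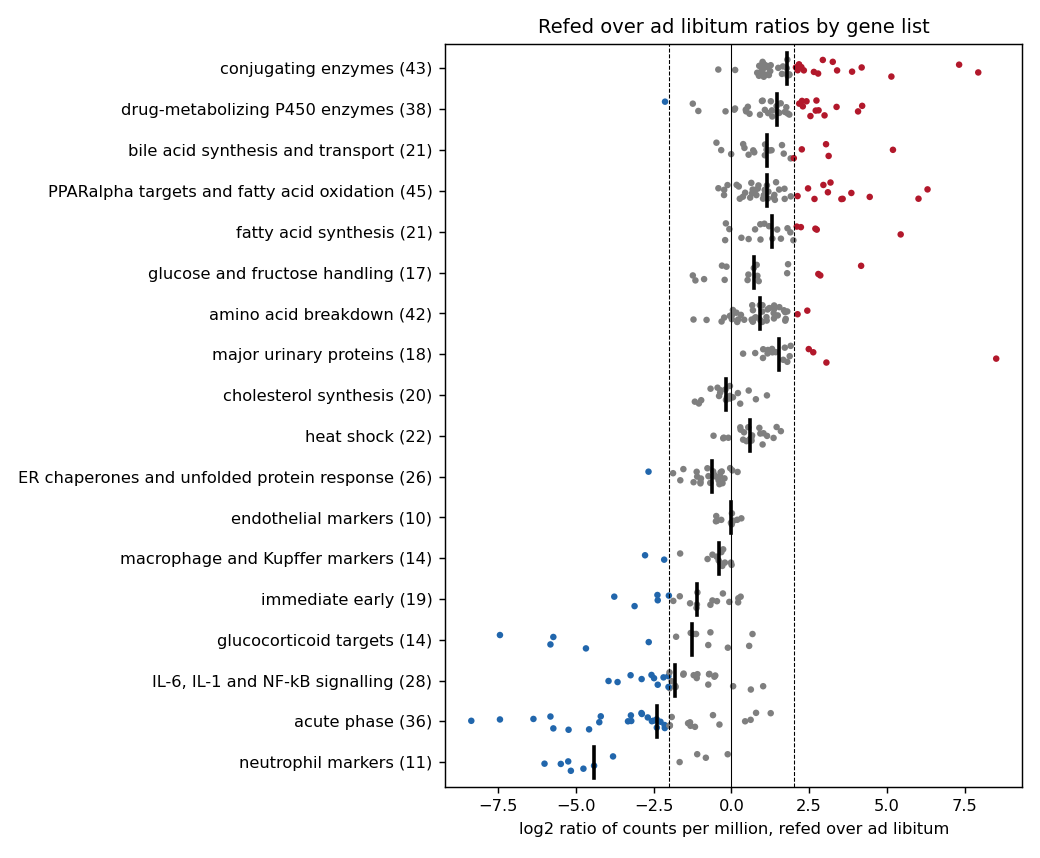
Log2 ratio of refed over ad libitum for each gene at the count minimum in 18 lists (number of genes in parentheses), with the list median as a black bar. Red points are 4-fold or more higher, blue points 4-fold or more lower, and dashed lines mark 4-fold. The metabolic lists lie to the right except cholesterol synthesis (median -0.16), and the acute phase, cytokine and neutrophil lists lie to the left.

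Among 21 genes of bile acid synthesis and transport, 5 were 4-fold or more higher and 0 lower. Cyp7a1, which catalyses the first committed step from cholesterol to bile acids (chromosome 4, 6265612 to 6275632, GRCm38), was at 2.96 CPM ad libitum, 70.7 fasted, 109 refed and 71.4 to 469 in DD. The ad libitum level was far under the 8 other libraries, and the refed level was in the lower part of the DD range (log2 ratio 5.19, 4.96 to 5.44). Cyp8b1, which sets the share of cholic acid, stood 3.13 higher, the organic anion carriers Slco1a4 and Slco1a1 3.04 and 2.01 higher, and Akr1d1 2.27 higher. Of 20 genes of cholesterol synthesis, 0 passed 4-fold in either direction and 17 lay within 2-fold. Of all genes at the minimum, 1.44% were 4-fold higher, 1.51% were 4-fold lower and 9921 of 11197 lay within 2-fold, so these counts are near those shares. The median log2 ratio of the list was -0.16 (0.05 with total counts) in the refed and -2.61 in the fasted library. Amino acid breakdown had 2 higher members of 42, among them Cth (cystathionine lyase, 2.13), and 18 genes at 2-fold or more higher.

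The gene with the largest ratio was Mup18, a major urinary protein that carries pheromones in the urine of male mice (chromosome 4, 61670177 to 61674132, GRCm38). It was at 0.814 CPM ad libitum, 4.36 fasted and 297 refed, and at 14.1 to 23.1 in DD. The refed library was far above all others, and the ad libitum and fasted libraries were under the DD range (log2 ratio 8.51, 8.08 to 8.99). Of 18 major urinary protein genes, 4 were 4-fold and 16 were 2-fold or more higher, with a median of 1.55 in the refed and in the fasted library, and none of the others came near the Mup18 ratio: Mup8, Mup12 and Mup17 stood 3.06, 2.63 and 2.49 higher. The Mup genes are near-identical copies, so the value of a single copy is uncertain. Male-biased liver genes included 7 members of 24, among them Sult2a8 (3.40), Cyp4a12b (3.35) and Cyp4a12a (2.73), all higher. Female-biased genes had 3 higher and 2 lower members of 8.

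Car3, carbonic anhydrase 3 (chromosome 3, 14863538 to 14872381, GRCm38), had the next largest ratio. It was at 5.99 CPM ad libitum, 148 fasted and 2028 refed, and at 169 to 3701 in DD with a median of 2669.7. The refed level was inside the DD range, and CT1 (169) and CT17 (651) were its lowest DD libraries. The log2 ratio was 8.40 (8.24 to 8.57). Car3 is also abundant in fat and muscle, so the list of 12 adipose and muscle markers was examined: the other 11 stayed under 100 counts in both libraries, with Adipoq at 2 and 0 counts, Acta1 at 2 and 1 and Ckm at 0 and 4 in the ad libitum and refed library. The remaining genes of the 20 largest ratios were the peptide carrier Slc15a2 (6.58, from 3 and 267 counts), the carboxylesterases Ces2b (7.22, from 1 and 139 counts) and Ces2c (5.79), Upp2 (5.29), Car1 (5.12), Serpina9 (4.95), 9130409I23Rik (5.82) and Clec2h, which had 0 and 115 counts and was at least 41.2-fold higher.

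**Figure D3:**
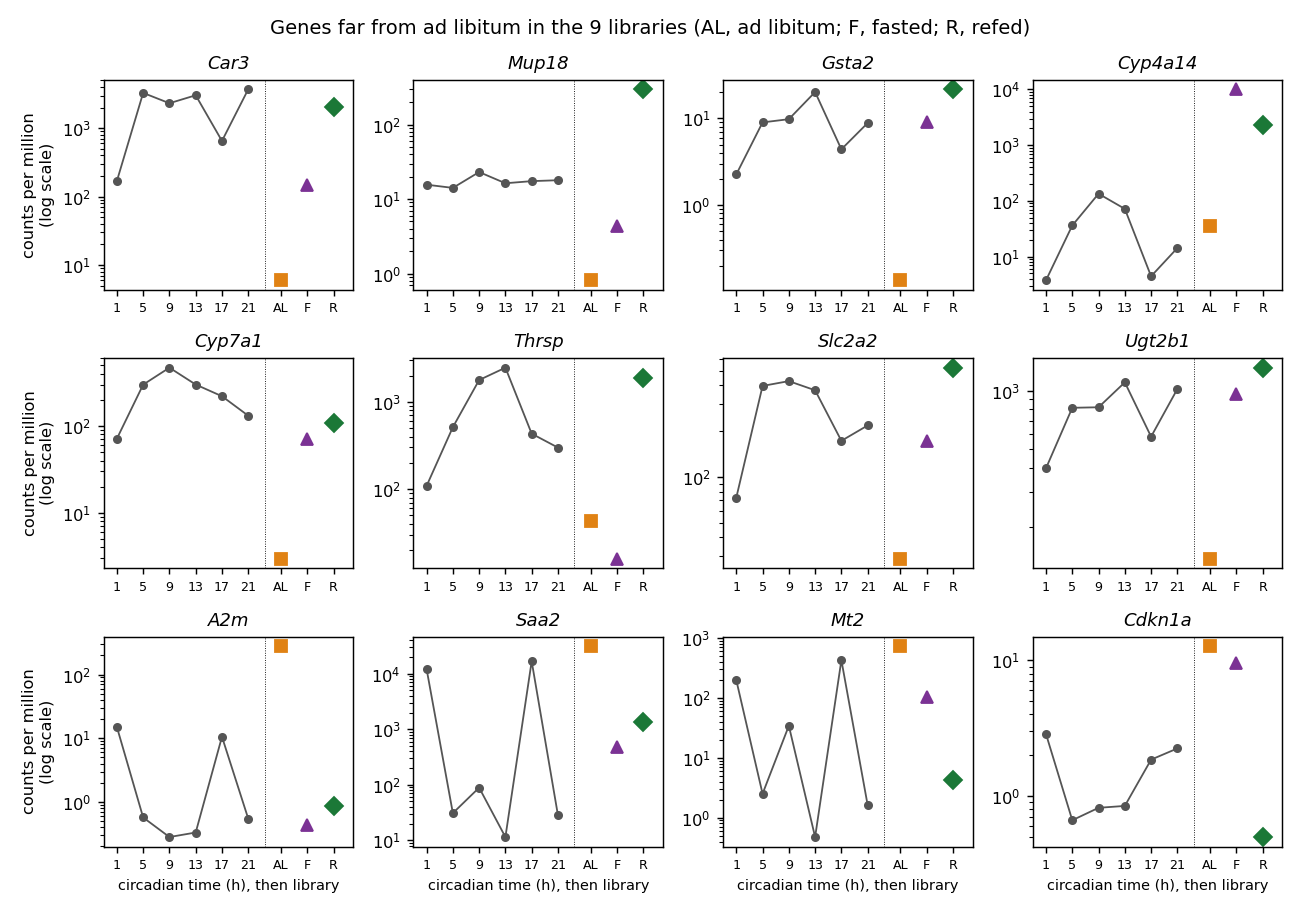
CPM on a log axis for 12 genes far from ad libitum, with the 6 constant-darkness libraries joined by circadian time and the ad libitum (orange square), fasted (purple triangle) and refed (green diamond) libraries at the right of each panel. In 7 of the 8 higher genes the ad libitum point is under the constant-darkness range, the exception being Cyp4a14, and in the 4 lower genes it is the highest point.

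Clock genes stood on both sides. Of 18 genes in the 4 clock lists, 6 were 4-fold or more higher and 3 lower, with a median log2 ratio of 0.65. Promoters are printed because the factors that clock genes encode bind short known motifs, and 4 higher genes are shown. Per3, Ciart and Tef are clock members. Ugt2b1, a conjugating enzyme in none of the clock lists, is shown as a gene whose window holds the D-box, the site of DBP, TEF, HLF and NFIL3. The windows run from 250 bases before to 50 bases after the start (RefSeq, GRCm38.p6), 5′ to 3′ along the gene. Capitals mark the D-box TTATGTAA in Per3 (chr4:151044616-151044915, minus strand) and Ugt2b1 (chr5:86926454-86926753, minus strand), and the E-box CACGTG, the site of CLOCK and BMAL1, in Ciart (chr3:95882179-95882478, minus strand) and Tef (chr15:81802423-81802722, plus strand), on either strand.
Per3: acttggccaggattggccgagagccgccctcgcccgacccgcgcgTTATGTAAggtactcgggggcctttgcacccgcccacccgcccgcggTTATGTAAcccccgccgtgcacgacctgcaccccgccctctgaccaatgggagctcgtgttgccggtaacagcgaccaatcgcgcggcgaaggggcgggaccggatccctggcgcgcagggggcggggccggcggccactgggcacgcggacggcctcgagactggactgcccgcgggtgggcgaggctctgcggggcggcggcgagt
Ugt2b1: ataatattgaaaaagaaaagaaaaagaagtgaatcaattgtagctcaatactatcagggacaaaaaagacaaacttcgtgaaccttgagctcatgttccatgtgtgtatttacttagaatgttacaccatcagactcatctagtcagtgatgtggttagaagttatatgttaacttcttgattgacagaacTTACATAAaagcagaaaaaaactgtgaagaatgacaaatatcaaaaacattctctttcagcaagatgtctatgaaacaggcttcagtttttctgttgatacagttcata
Ciart: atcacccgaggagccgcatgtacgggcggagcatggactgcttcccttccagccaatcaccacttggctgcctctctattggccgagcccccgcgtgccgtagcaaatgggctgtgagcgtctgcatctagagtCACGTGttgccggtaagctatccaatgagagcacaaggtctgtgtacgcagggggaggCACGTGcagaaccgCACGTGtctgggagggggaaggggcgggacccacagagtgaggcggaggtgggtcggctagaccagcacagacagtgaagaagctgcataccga
Tef: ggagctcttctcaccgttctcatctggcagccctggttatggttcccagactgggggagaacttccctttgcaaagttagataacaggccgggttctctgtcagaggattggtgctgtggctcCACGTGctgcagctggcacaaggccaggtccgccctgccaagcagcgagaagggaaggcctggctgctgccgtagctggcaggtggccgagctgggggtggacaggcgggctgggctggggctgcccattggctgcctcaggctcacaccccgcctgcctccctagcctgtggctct

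Per3 held 2 D-boxes and Ciart 3 E-boxes, none of which overlapped another of the 9 motifs searched. Neither motif was found in the windows of the other clock members, Dbp, Nr1d1, Nr1d2, Arntl, Npas2 and Nfil3. The printed windows therefore do not stand for all clock members. Windows were found for 130 of the higher and 131 of the lower genes. The D-box was in 3.07% of the windows of higher genes (5 of 163, in Per3, Ugt2b1, Ces1e, Ces1g and Map2k6), in 0.625% of those of lower genes and in 0.938% of all 32841 windows of this length. The E-box was in 4.29%, 5% and 7.15%. A match describes the letters only.

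Repressors and the PAR bZIP factors, the output activators of the clock, were among the higher genes. Dbp, whose exons overlap Sphk2 on the other strand, was at 0.949 CPM ad libitum, 5.32 fasted and 33.9 refed, and in DD it peaked with 95.7 in the CT5 library, followed by 37.7 (CT9) and 11.7 (CT13), with 1.52 to 3.94 in the remaining DD libraries. The refed level fell between the CT9 and CT13 libraries, and the ad libitum level was under all 6 (log2 ratio 5.16, 4.75 to 5.60). Tef stood 2.84 higher and Hlf, the remaining PAR bZIP gene, 0.81 higher. Per3 was at 1.07, 2.32 and 21.7 CPM ad libitum, fasted and refed, and at 1.93 to 63.1 in DD with its peak at CT9 (log2 ratio 4.35, 3.96 to 4.77). Ciart, a repressor of CLOCK and BMAL1, stood 4.08 higher from 11 and 173 counts. Per2 stood 1.81 and Cry2 0.85 higher, whereas Per1 (-1.22) and Cry1 (-1.47) stood lower.

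The nuclear receptors Nr1d1 and Nr1d2 (REV-ERBalpha and beta), which repress Arntl and Nfil3, were both higher. Nr1d2 was at 8.60 CPM ad libitum, 61.1 fasted and 129.7 refed, within its DD range of 35.0 to 154, and the ad libitum level was the lowest of the 9 libraries (log2 ratio 3.91, 3.78 to 4.06). Nr1d1, which shares exon sequence with Thra on the other strand, was at 1.53, 5.12 and 13.1 CPM. The activators were lower: Arntl was at 24.8 CPM ad libitum, 19.0 fasted and 5.37 refed, with DD levels from 1.54 at CT5 to 34.2 at CT21 (log2 ratio -2.21, -2.40 to -2.01). Npas2 had a log2 ratio of -3.30, from 212 and 20 counts, and Nfil3, the repressor at D-boxes, was at 74.0, 34.9 and 11.8 CPM beside 10.7 to 54.0 in DD (log2 ratio -2.65). Clock itself had a log2 ratio of -0.32 and Rora -0.07. Against the DD range, 17 of the 18 clock genes were inside it in the refed library and 10 in the ad libitum library, where 7 were under it and 1 above.

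**Figure D4:**
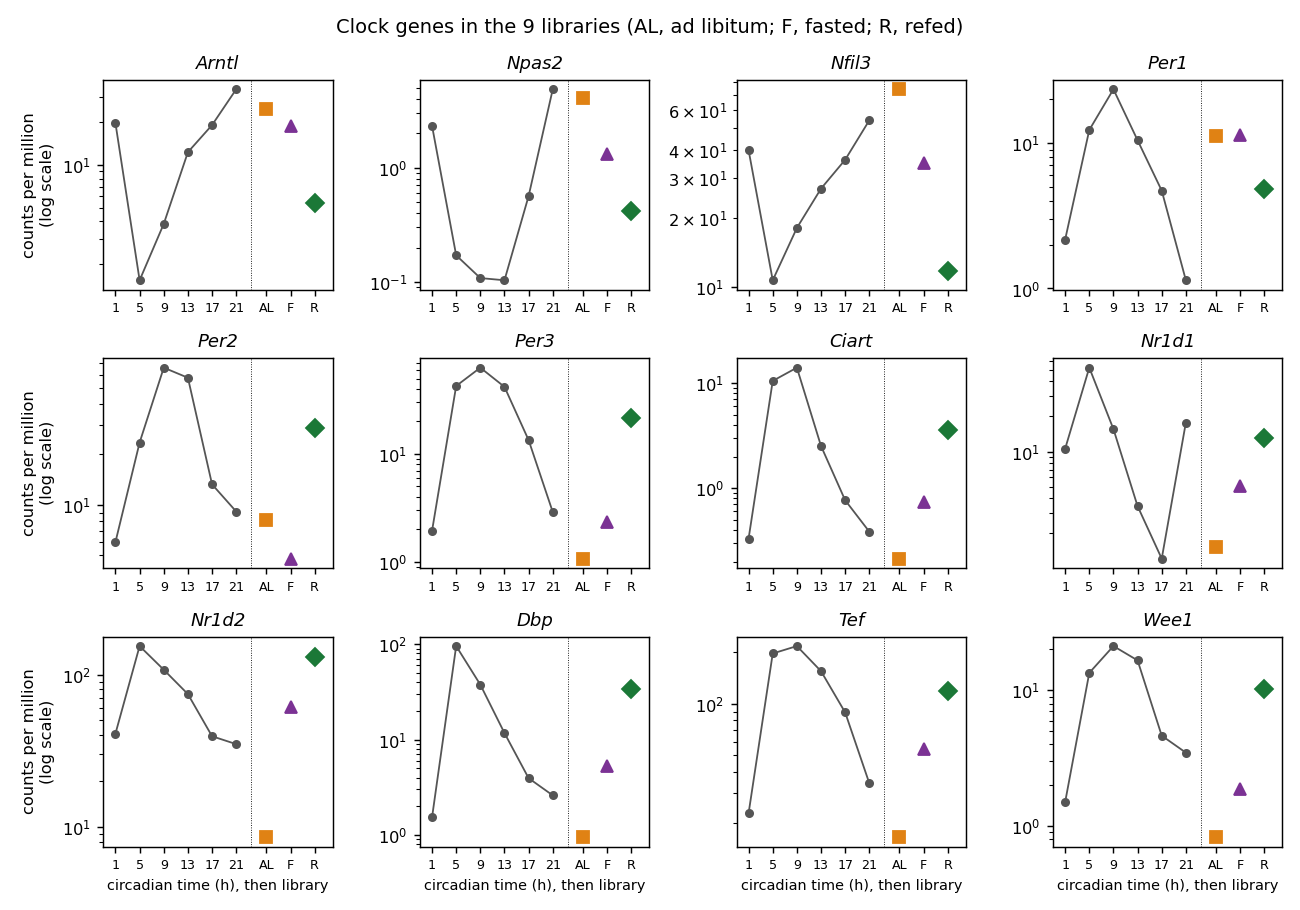
CPM on a log axis for 11 clock genes and the output gene Wee1, with the 6 constant-darkness libraries joined by circadian time and the ad libitum (orange square), fasted (purple triangle) and refed (green diamond) libraries at the right. In the refed library Per2, Per3, Ciart, Nr1d1, Nr1d2, Dbp, Tef and Wee1 are above both the ad libitum and the fasted library. Arntl, Npas2, Nfil3 and Per1 are under both.

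Of 19 clock output genes, 4 were 4-fold or more higher and 0 lower. The list as a whole was not displaced: 7 genes were 2-fold or more higher, 3 were 2-fold or more lower and 9 lay within 2-fold. Its median log2 ratio was -0.05. Upp2, uridine phosphorylase 2, was at 4.09 CPM ad libitum, 65.8 fasted, 160.3 refed, and in DD its median was 213 with a peak of 620.1 at CT9. Wee1, a kinase that delays mitosis, stood 3.62 higher, the ubiquitin protease Usp2 2.39 and the G protein regulator Rgs16 2.09. Levels of Upp2 and Wee1 in the refed library were inside the DD range and those in the ad libitum library under it.

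Angptl8, a feeding-induced secreted protein, and 5 other genes that the study singled out were near ad libitum after refeeding. Angptl8 was at 45.6 CPM ad libitum, 4.38 fasted and 54.2 refed, with a DD range of 29.8 to 193, and the log2 ratio of refed over ad libitum was 0.25 (0.17 to 0.33). The ratios were -0.12 for Pdk4, 0.60 for Mfsd2a, -0.19 for Idi1, -0.34 for Mvd and -0.15 for Gnat2. All 6 lay within 2-fold of ad libitum after refeeding but 4-fold or more away after the fast, with fasted log2 ratios of -4.27 to 4.50. The study chose these genes on these libraries, so their values are a description.

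Acute phase genes gave the most lower genes of the lists examined. Of 36 measured, 22 were 4-fold or more lower and 0 higher, 30 were 2-fold or more lower, and the median log2 ratio was -2.40 in the refed and -2.66 in the fasted library, each against ad libitum. A2m, a secreted protease inhibitor (chromosome 6, 121636165 to 121679238, GRCm38), had the lowest ratio of all genes. It was at 280.1 CPM ad libitum, 0.436 fasted and 0.853 refed, and at 0.281 to 15.0 in DD with a median of 0.557. The 2 DD libraries above 1 CPM were CT1 (15.0) and CT17 (10.5), and the ad libitum library was far above all others. The log2 ratio was -8.36 (-8.84 to -7.92), from 14459 and 41 counts.

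Serum amyloid A genes encode lipoprotein-bound markers of inflammation, and Saa1 and Saa2 were highest in the ad libitum library. Saa2 (chromosome 7, 46751833 to 46754313, GRCm38) was at 31623 CPM ad libitum, 473 fasted, 1329 refed and 11.4 to 16829 in DD, where CT1 (12182) and CT17 (16829) were the high libraries and the median was 59.7. The refed level was therefore 23.8-fold under ad libitum and still above 4 of the 6 DD libraries. Saa1 stood at -4.24 and Saa3 at -6.36 on the log2 scale, and Saa1 and Saa2 are similar enough to share reads. Lcn2, a siderophore-binding protein, was at 1738, 11.8 and 33.0 CPM ad libitum, fasted and refed (-5.72), and Orm2 at 2393, 21.8 and 63.7 (-5.23). The most abundant members were the heme and hemoglobin carriers Hp (-2.69, 46189 CPM ad libitum and 7178 refed) and Hpx (-2.51, 32634 and 5736) and complement C3 (-2.15, 25151 and 5679).

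Both metallothioneins, small proteins that bind zinc and copper, were among the 20 lowest ratios. Mt2 (chromosome 8, 94172618 to 94173567, GRCm38) was at 733 CPM ad libitum, 102 fasted and 4.23 refed, and at 0.475 to 426 in DD with a median of 18.4, CT1 (197) and CT17 (426) being high. Mt1 was at 1381, 149 and 24.5 CPM, and at 3.82 to 616 in DD. For both genes the order was ad libitum, fasted, refed, and the refed level was inside the DD range (log2 ratios -7.44 and -5.81). They also belong to the list of 14 glucocorticoid targets, of which 5 were 4-fold or more lower and 0 higher, the others being Lcn2, Cdkn1a and Zbtb16 (-2.66). Other targets were not lower to that degree: Fkbp5 had a ratio of -1.31, Per1 -1.22, Tsc22d3 0.57 and Tat 0.68. The metal carrier Slc39a14 (-2.15) and the metalloreductase Steap4 (-3.32) were lower members as well. The list of metallothionein and metal handling genes did not stand lower as a whole. Of its 15 genes at the count minimum, 4 were 4-fold or more lower, 4 were 2-fold or more higher and 7 lay within 2-fold. Its median log2 ratio was 0.51. Exons of Mt2 overlap Gm45774 on the other strand.

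Several neutrophil markers were among the lower genes. Of 16 markers in the files, 11 passed the count minimum and 7 of these were 4-fold or more lower; most of the 7 passed it only through the ad libitum library, where they were high, so this count follows in part from the minimum. S100a9 had 1458 counts ad libitum, 116 fasted and 38 refed, and S100a8 had 814, 72 and 20. In DD S100a9 lay between 0.785 and 20.1 CPM, with CT1 (11.6) and CT17 (20.1) high, beside 28.2 ad libitum and 0.791 refed. Retnlg went from 144 counts to 0 and was at least 44.7-fold lower, Ngp from 138 to 2, and Prtn3 from 2459 to 164. The summed level of all 16 markers in the files was 0.0636% of counts ad libitum, 0.0556% fasted, 0.0388% refed and 0.0291% to 0.0626% in DD, most of it Wfdc21 and Lyz2, which other liver cells also make. Macrophage and Kupffer markers had 2 lower members of 14, Marco (-2.77) and Itgam (-2.16), while the Kupffer marker Clec4f had a ratio of 0.01. S100a8, S100a9 and Prtn3 were, like the acute phase share, highest in the ad libitum, CT1 and CT17 libraries, whereas the summed marker level was higher in the fasted (0.0556%) than in the CT1 library (0.0547%). Whether these cells had a part in the ratios of other genes was not tested.

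Genes of interleukin and NF-kB signalling stood lower with them. Of 28 genes, 10 were 4-fold or more lower and 0 higher, with a median of -1.80. The cytokine brake Socs3 was at 111 CPM ad libitum, 5.37 fasted, 7.22 refed and 3.62 to 61.8 in DD, again with CT1 (52.3) and CT17 (61.8) high (log2 ratio -3.95, -4.11 to -3.79). Tifa (-3.66), the interleukin-1 receptor Il1r1 (-3.24), Tnfaip3 (-2.88), Cebpd (-2.57) and the oncostatin receptor Osmr (-2.48) were further members. The chemokine Cxcl1, which attracts neutrophils, was at 231, 0.803 and 7.62 CPM (-4.92), the lowest ratio of the chemokine list. Of 12 chemokines at the count minimum, 3 were 4-fold or more lower, 1 was 4-fold or more higher and 6 lay within 2-fold. Their median log2 ratio was 0.21. Cish, the brake on growth hormone signalling, behaved unlike Socs3. It was at 5.04 CPM ad libitum, 2.04 fasted and 0.479 refed, with 0.882 to 36.9 in DD. The refed level was thus the lowest of the 9 libraries, and the ad libitum level was within the DD range.

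The promoters of these 2 brakes are printed since SOCS genes are known targets of STAT factors, with the STAT element TTCNNNGAA in capitals (RefSeq, GRCm38.p6, same window). Socs3 is at chr11:117969317-117969616 on the minus strand and Cish at chr9:107296409-107296708 on the plus strand.
Socs3: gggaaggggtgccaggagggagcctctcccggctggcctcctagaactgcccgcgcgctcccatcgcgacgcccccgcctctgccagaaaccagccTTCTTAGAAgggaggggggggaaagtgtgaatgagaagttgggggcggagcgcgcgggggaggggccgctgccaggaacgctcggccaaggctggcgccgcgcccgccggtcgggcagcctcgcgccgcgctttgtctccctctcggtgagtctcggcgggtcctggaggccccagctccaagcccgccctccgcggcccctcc
Cish: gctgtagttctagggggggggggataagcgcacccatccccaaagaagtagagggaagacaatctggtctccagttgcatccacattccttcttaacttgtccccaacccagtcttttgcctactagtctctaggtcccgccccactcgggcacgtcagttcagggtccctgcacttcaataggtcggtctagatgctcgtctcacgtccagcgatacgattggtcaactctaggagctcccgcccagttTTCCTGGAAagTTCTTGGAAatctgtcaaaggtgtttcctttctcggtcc
Cish held 2 elements and Socs3 had 1, and those of Cish overlapped the heat shock element core GAANNTTC. The window of Socs1, another SOCS gene among the 4-fold genes, held 0 and is not printed. The STAT element was in 10.6% of the windows of lower genes, 5.52% of those of higher genes and 8.3% of all windows. The window of A2m was not used here.

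Some immediate early genes were lower as well. Of 19 immediate early genes, 5 were 4-fold or more lower, 11 were 2-fold or more lower and 0 were 2-fold higher. Gadd45g was at 65.3 CPM ad libitum, 42.3 fasted and 4.81 refed, and Junb at 5250, 515 and 948 counts. Cdkn1a, the p21 inhibitor of the cell cycle (chromosome 17, 29090979 to 29100722, GRCm38), was at 12.7 CPM ad libitum, 9.64 fasted, 0.500 refed and 0.664 to 2.87 in DD. The ad libitum and fasted levels were above all DD libraries and the refed level under all of them (log2 ratio -4.67, -5.33 to -4.09). Gadd45b had 167, 246 and 18 counts. Fos, Egr1 and Jun had ratios of -1.12, -1.87 and -1.66 and did not pass 4-fold.

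Secreted and transport proteins of hepatocytes were among the remaining lower genes. Igfbp1, an insulin-repressed binding protein for insulin-like growth factors, was at 286 CPM ad libitum, 625 fasted and 51.4 refed, within its DD range of 7.74 to 59.5 (log2 ratio -2.48). The insulin receptor substrate Irs2 was at 37.8, 34.2 and 7.89 CPM (-2.26). Slc13a5, the citrate carrier (chromosome 11, 72241990 to 72267295, GRCm38), was at 56.2, 0.505 and 0.749 CPM with 0.331 to 24.1 in DD, highest at CT1 (log2 ratio -6.23, -6.74 to -5.76); its exons overlap 1700051A21Rik on the other strand. Slc1a4 (-3.43) and Slc3a1 (-2.67), both amino acid carriers, were lower too. Of 26 genes for endoplasmic reticulum chaperones, 1 passed 4-fold, the secretory factor Bhlha15 (-2.66), and 7 were 2-fold or more lower, with a median of -0.63. Heat shock genes had 0 members and 6 of 22 at 2-fold or more higher. Over all genes at the minimum, 1.44% were 4-fold higher and 1.51% lower, and 5.89% were 2-fold higher and 5.51% lower. The 0 heat shock members are near the 4-fold shares.

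Smaller groups held the rest of the listed genes. Of 22 redox and NADPH genes, 3 were 4-fold or more higher and 0 lower: Ephx1, the microsomal epoxide hydrolase, Aox1, aldehyde oxidase, and Akr1c6. Ephx1 was at 41.2 CPM ad libitum, 317 fasted, 337 refed and 169 to 433 in DD, so that the ad libitum level was under the DD range and the refed level inside it (log2 ratio 3.03). Of 25 genes for hepatokines and the growth factor axis, 1 was higher and 4 were lower, the higher one being Igfbp2, a binding protein for insulin-like growth factors that stood opposite to Igfbp1 at 58.6 CPM ad libitum and 297 refed (log2 ratio 2.34). Of 23 lipoprotein and lipase genes, 2 were higher, Apoa4 and the endothelial lipase Lipg (3.11, from 110 and 882 counts). Of 24 cell cycle genes, 2 were higher and 2 lower (8.33% each, beside 1.44% and 1.51% of all genes). The makers of DNA precursors Tk1 (2.72) and Rrm2 (2.15) stood higher, with Tk1 at 3.87 CPM ad libitum, 21.6 fasted, 25.6 refed and 12.9 to 52.2 in DD, whereas Cdkn1a and E2f8 (-2.02), a repressor of cell cycle genes, stood lower. Exons of Tk1 overlap Afmid on the other strand. Afmid stood 2.82 higher, at 12.2 CPM ad libitum and 85.8 refed, so the Tk1 values may hold reads of Afmid.

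Of 19 pericentral Wnt targets, which mark hepatocytes around the central vein, 2 were higher (Cyp1a2 and the ammonium carrier Rhbg, 2.02) and 1 was lower (Slc1a4). The single member of the integrated stress response list was Chac1, which breaks down glutathione (-3.40, 681 counts ad libitum and 60 refed). Kruppel-like factors had 0 of 12 in either direction, and genes of sterol regulation and LDL uptake 0 of 11. Both are near the shares of all genes at 4-fold (1.44% higher and 1.51% lower). Among markers of other cells, stellate, erythroid and exocrine pancreas markers had 0 members of 10, 9 and 1 at the minimum, also near those shares. Cholangiocyte markers went both ways. Of 5 at the minimum, 2 were 4-fold or more lower, Spp1 and Sox9, 2 were 2-fold or more higher and 1 lay within 2-fold. Their median log2 ratio was -0.09, and it was 1.07 with a minimum of 10 counts. Sox9 was at 14.9 CPM ad libitum, 1.95 fasted, 2.54 refed and 4.12 to 8.45 in DD, and Spp1, the secreted protein osteopontin, was at 446, 37.4 and 72.1 CPM (log2 ratios -2.55 and -2.63). Neither gene is limited to these cells, and the part of bile duct cells in these ratios was not tested.

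The other genes of the 20 lowest ratios were Isyna1, which makes inositol (-5.07, 186 CPM ad libitum and 5.54 refed), the antibacterial lectin Reg3b (409 and 0 counts, at least 127-fold lower), Crybb3 (-5.09), Apol10b (-5.12), 9530077C05Rik (-5.14), and 3 genes with 121 or fewer counts ad libitum and 1 or 2 refed, namely Olfr16 (-6.82, -12.13 to -4.31), Usp9y (-6.62, -11.94 to -4.12) and Rnf138rt1 (-5.58, -8.65 to -3.69). The intervals of these last 3 span several log2 units.

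**Figure D5:**
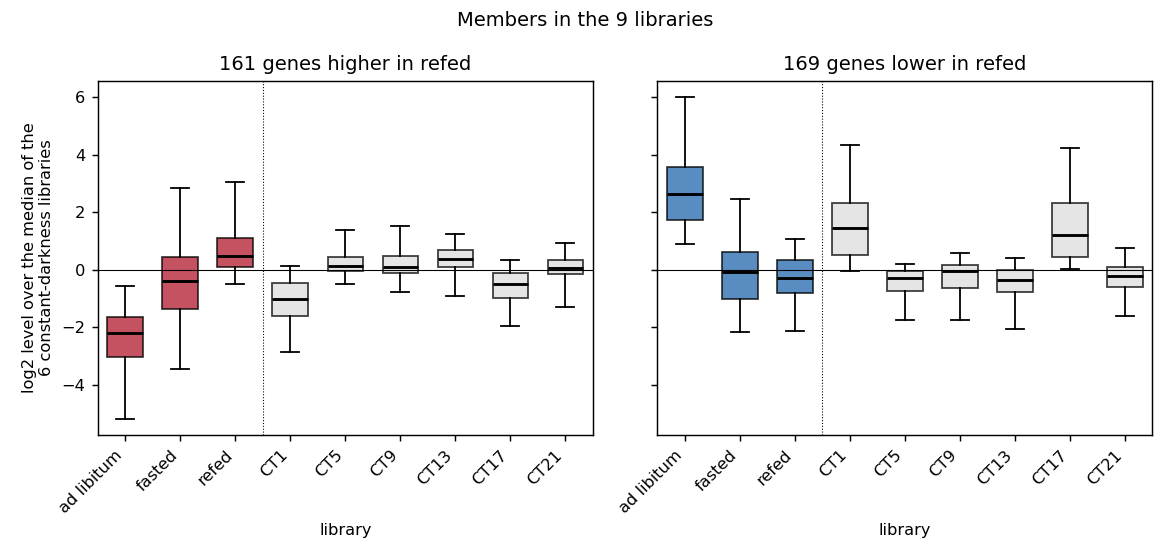
Log2 level of the 161 higher genes (left, red) and the 169 lower genes (right, blue) in each library over their median in the 6 constant-darkness libraries (grey boxes), with boxes from the lower to the upper quartile, whiskers from the 5th to the 95th percentile and a black bar at the median, over genes above 0 in that library. The ad libitum boxes are farthest from 0 in both panels and CT1 and CT17 lean the same way.

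The DD libraries entered the ratio only through the TMM factors and the choice of the highest-total transcript. The position of the refed and the ad libitum library in the DD range is given as a description. The rule places these 2 libraries 4-fold or more apart, so their positions are in part fixed by it. Of the 161 higher genes, the refed level was inside the DD range for 94 and above it for 67, while the ad libitum level was inside for 23 and under it for 138. Of the 169 lower genes, the refed level was inside for 125, under for 41 and above for 3, while the ad libitum level was inside for 13 and above for 156. Over all 11197 genes the refed level was inside the range for 54.4% and the ad libitum level for 56%. The median log2 distance from the DD median was 0.48 refed and -2.19 ad libitum for the higher genes, and -0.28 and 2.63 for the lower genes. CT1 and CT17 were displaced towards ad libitum, at -1.04 and -0.49 for the higher and 1.44 and 1.21 for the lower genes.

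The ad libitum library held the lowest level of all 9 libraries for 77.6% of the higher genes and the highest for 89.3% of the lower genes, beside 16.1% and 17.2% of all genes. The refed library held the highest level for 32.3% of the higher and the lowest for 19.5% of the lower genes, beside 16.1% and 13.7% of all genes. The rule places these 2 libraries apart, so these shares are in part fixed by it. When the refed library was set against the median of the DD libraries instead, 31 of the 11197 genes were 4-fold or more higher and 19 lower. That reference is a median of 6 libraries and ad libitum is 1 library, so these numbers are not matched to 161 and 169. The refed level lay on the same side of the DD median for 127 of the 161 higher and 102 of the 169 lower genes. Of the members, 18 and 12 passed 4-fold. The 18 were Apoa4, Cyp2a22, Cyp2c40, Cyp2c69, Cyp4a10, Cyp4a14, Cyp4a31, Dbp, Gm3776, Gsta1, Hapln1, Hcrtr2, Mmp12, Mup18, Pls1, Rgs16, Stap1 and Thrsp. The 12 were Arid5a, B3galt1, Cish, Col6a6, Dnaic1, E030018B13Rik, Efna3, Efr3b, Fam222a, Mt2, Retnlg and Scara5. Apoa4, a lipoprotein of fat transport, stood 6.14-fold higher than ad libitum, at 1509 CPM fasted and 1536 refed beside 116 to 290.1 in DD, so that the fasted and refed libraries stood above the other 7. The genes of these 2 sets that are in no list, and Hcn3, Map2k6, Ces1e and Ces1g, were chosen after their values were seen.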

How the data were processed

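RNA-seq of polyA+ liver RNA (paired reads of 150 bases, Illumina HiSeq) was given as 1 file per library, and the authors deposited whole-number read counts per RefSeq transcript, 27457 in each file. The study's methods name FPKM, but the values are counts and were used as such. The submitters' processing notes name TopHat2 2.0.13 and the GRCm38 (mm10) genome; no source used here names the counting program or says whether strand was used, so reads of overlapping genes on opposite strands could not be separated (74 of 326 members found in GENCODE M21 share an exon with such a gene, and 24 share one with a gene on the same strand). Names came from RefSeq GRCm38.p6 for 26390 transcripts, GENCODE M21 for 115 and the study's tables for 12. The 940 unnamed transcripts, 0.335% to 0.798% of a library's counts, were left out of genes.

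The transcript with the highest total was kept for each of 20418 genes (3737 had several). Library sizes were scaled by TMM in edgeR 4.0.16 (R 4.3.3), and ratios, exact Clopper-Pearson 95% intervals, lists and ranges were computed in Python 3.11.15 (pandas 2.3.3, scipy 1.17.1). A library at 0 counts was set to 3 counts, and its fold is given as a bound. Genes needed 100 counts in either library. The ratio and its interval were run on simulated counts that held counting error only. That run checks the computation and cannot show how the interval behaves with differences between mice. Alternatives were total counts, DESeq2 1.42.0 size factors, upper quartile, no scaling, TMM over the 2 libraries or without acute phase and neutrophil genes, all or summed transcripts, and other count minimums.

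Named genes are the 20 largest and 20 smallest ratios, up to 8 members of each list, all clock genes, Angptl8 and the 5 genes screened with it, and cell type markers; others are said to be chosen after their values were seen, and some genes under this rule are not reported here. Members and lists were chosen with earlier results of these data known, so counts over lists are descriptions. Promoter sequences are from RefSeq.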

Additional observations from a re-analysis of the deposited data

How the results depend on the processing

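The numbers of genes at 4-fold or more (161 higher, 169 lower) changed with the count minimum. They were 283 and 318 with a minimum of 10 counts, 429 and 391 with none, and 110 and 100 with 100 counts required in both libraries. Other scalings gave 149 to 214 higher and 135 to 190 lower genes, with total counts at 214 and 135 and no scaling at 149 and 190. These scalings moved the median log2 ratio of all genes to 0.18 and -0.12. Under total counts 34 members fell within 4-fold, under no scaling 12 and under upper quartile scaling 10, and none changed sign. With every transcript kept the numbers were 194 and 216. With the median of the 6 constant-darkness libraries as the reference, an alternative chosen after seeing the data, they were 31 and 19. A median of 6 libraries is not matched to a reference of 1 library. Medians of 9 lists near 0, such as cholesterol synthesis, chemokines and clock outputs, changed sign under some scalings, minimums or with summed transcripts. With 1 library per condition, no replicate could be left out and differences between mice were not measured. The intervals of 72 members, each with 40 or fewer counts in 1 of the 2 libraries, were wider than 1 log2 unit.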

Other observations

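Some gene families in no list were looked at after their values were seen. Carboxylesterases, which split drug and lipid esters, had 7 members higher of 13 at the count minimum and 11 at 2-fold or more, with a median log2 ratio of 2.22 in the refed and 1.53 in the fasted library. Ces2b, Ces2c, Ces1f, Ces2e, Ces1g, Ces1d and Ces1e are the 7, and several are near copies that may share reads. Aldo-keto reductases of the Akr1 group, which reduce steroids and aldehydes, had 4 higher of 11 (Akr1c19 3.27, Akr1c14 2.92, Akr1d1 2.27, Akr1c6 2.10), and 2 of 4 Hsd3b genes of steroid metabolism were higher (Hsd3b3 2.55, Hsd3b5 2.36). Hsd3b5 was at 62.6 CPM ad libitum, 11.7 fasted and 322 refed, so that the fasted library was the low one for this gene.

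Guanylate-binding proteins, induced by interferon gamma, had 2 higher of 11 and 7 at 2-fold or more, with a median of 1.29 in the refed and 0.17 in the fasted library. The list of interferon-stimulated genes had 3 higher of 35 and 13 at 2-fold or more, among them Gbp10 (3.44), Ifit3 (2.35) and Cxcl9 (2.26), while the acute phase list was lower in the same library.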
